A study of Mus musculus with 29 samples.

Results

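Transcripts of 10 glycolytic enzymes were followed cell by cell in 29 single-cell libraries of OT-1 mouse spleen. The genes were Hk2, Gpi1, Aldoa, Tpi1, Gapdh, Pgk1, Pgam1, Eno1, Pkm and Ldha, taken by symbol from the deposited expression table. Aldoa had 2 entries there, so the 10 genes gave 11 of the table's 54933 entries. OT-1 is a mouse strain whose T cells carry a transgenic receptor for an ovalbumin peptide shown by class I MHC, and all 29 libraries came from it. In the OVA group, 21 cells (called OVA1 to OVA21) were kept for 3 h beside antigen-presenting cells (APC) displaying ovalbumin. In the nothing group, 8 cells (N1 to N8) were kept equally long beside APC displaying no antigen. The comparison asks how the transcripts of an OT-1 cell differ after it meets its antigen. Every library is labelled as a splenic T cell, with no age or number of mice and no kind of APC named in the labels. Since no animal, culture or day is named, each group counts as 1 sample. Values are therefore given per cell, with no test between the groups, and the cell numbers only name the cells. The serial numbers in the labels put all OVA cells before all nothing cells, and group and serial order cannot be told apart.

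Glycolysis splits glucose into pyruvate in the cytosol and yields ATP. Hexokinase traps glucose, glucose phosphate isomerase and aldolase lead to triose phosphates, and the lower enzymes recover ATP and make pyruvate. Lactate dehydrogenase turns pyruvate into lactate and regenerates NAD+, which lets the pathway run fast. Naive T cells are known for a low glycolytic rate, and activated T cells for a high one, with HIF-1 and MYC among the transcription factors that drive the enzyme genes. HIF-1 binds the core motifs ACGTG and GCGTG, and MYC binds the E-box CACGTG, which contains ACGTG.

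The promoters of Aldoa, Gapdh and Ldha are shown because Aldoa and Ldha reached the highest levels of the enzymes and Gapdh is the one most used as a reference gene. Each run is the 250 bases upstream of a RefSeq start (build GRCm38.p6), 5′ to 3′ on the gene's strand, with ACGTG and GCGTG on either strand in capitals. Aldoa lies at chr7:126799179-126799428 on the minus strand, Gapdh at chr6:125165774-125166023 on the minus strand, and Ldha at chr7:46845554-46845803 on the plus strand.
Aldoa: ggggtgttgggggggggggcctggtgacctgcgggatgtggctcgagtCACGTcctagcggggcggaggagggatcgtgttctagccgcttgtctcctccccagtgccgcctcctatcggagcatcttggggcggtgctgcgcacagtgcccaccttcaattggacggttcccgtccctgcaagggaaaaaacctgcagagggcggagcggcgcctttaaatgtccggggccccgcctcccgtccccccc
Gapdh: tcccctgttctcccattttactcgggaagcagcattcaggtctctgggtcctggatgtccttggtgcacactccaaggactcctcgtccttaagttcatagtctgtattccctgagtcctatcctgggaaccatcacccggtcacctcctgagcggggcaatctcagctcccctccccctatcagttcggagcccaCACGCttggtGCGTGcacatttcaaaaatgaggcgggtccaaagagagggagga
Ldha: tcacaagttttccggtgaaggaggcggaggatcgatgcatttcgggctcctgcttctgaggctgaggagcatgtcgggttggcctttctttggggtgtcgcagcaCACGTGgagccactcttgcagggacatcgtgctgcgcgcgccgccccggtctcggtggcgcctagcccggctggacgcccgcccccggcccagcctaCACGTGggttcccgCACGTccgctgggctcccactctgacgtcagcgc

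All 10 genes had at least 1 window in the RefSeq table, 16 windows in all, each reaching 250 bases before and 50 after a start. ACGTG or GCGTG was found in a window of 8 of the 10 genes, the exceptions being Gpi1 and Tpi1. Over all 32851 promoter windows of this length 43.8% held such a core, against 12 of the 16 windows of the enzymes. Some windows of Aldoa and of Eno1 overlap, so the same matches are counted there more than once. The printed upstream run of Ldha held 5 matches, 4 of them in the 2 copies of CACGTG, that of Gapdh held 2 and that of Aldoa 1. Ldha and Aldoa have further starts in the RefSeq table. Upstream of the other Ldha start there was 1 match and no CACGTG, and upstream of the other Aldoa starts there were 1 and 0 matches. Ldha was the only gene of the 10 with CACGTG, which 7.15% of all windows held. GGGCGG, the GC box, was found in 11 of 16 windows and in 35.7% of all, and TATAAA in 0 of 16 and in 13.6% of all. These counts describe letters on either strand and not binding.

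Fewer than 3 of the 11 entries were found in most cells. The deposited values are in TPM, a unit scaled for transcript length and for the library total, so levels may be compared between genes. Detection required 1 TPM or more, and no value of these enzymes lay between 0 and 1. Among the OVA cells 13 of 21 had at least 1 enzyme (61.9%, exact 95% interval 38.4% to 81.9%), and among the nothing cells 2 of 8 did (25%, 3.19% to 65.1%). Both intervals cover counting error only, and they overlap. Without the libraries with over 90% of TPM in synthetic spike-in RNAs the shares were 62.5% of 16 OVA cells and 50% of 4 nothing cells. The number of entries per cell averaged 1.33 ± 1.62 in OVA cells (SD, 21 cells, median 1, highest 6) and 0.875 ± 1.64 in nothing cells (SD, 8 cells, median 0, highest 4), a difference of 0.46 that is smaller than the spread between cells and was -0.19 without the same libraries. Of the 15 cells with any enzyme, 7 had exactly 1, and all 7 were OVA cells. Actb, the cytoskeletal actin gene that every cell uses, was itself detected in 13 OVA cells and 1 nothing cell, so a 0 may be a failed estimate. Of the 12 housekeeping genes examined, Actb had the largest difference in favour of OVA cells. Of all pairs of an enzyme entry and a cell, 12.1% were detected in the OVA group and 7.95% in the nothing group. For genes detected in at least 3 cells the shares were 17.9% and 14.4%. Over all genes they were 2.20% and 2.74%, so detection over all genes was not lower in the nothing group. N4 alone had 6385 genes detected.

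**Figure D1:**
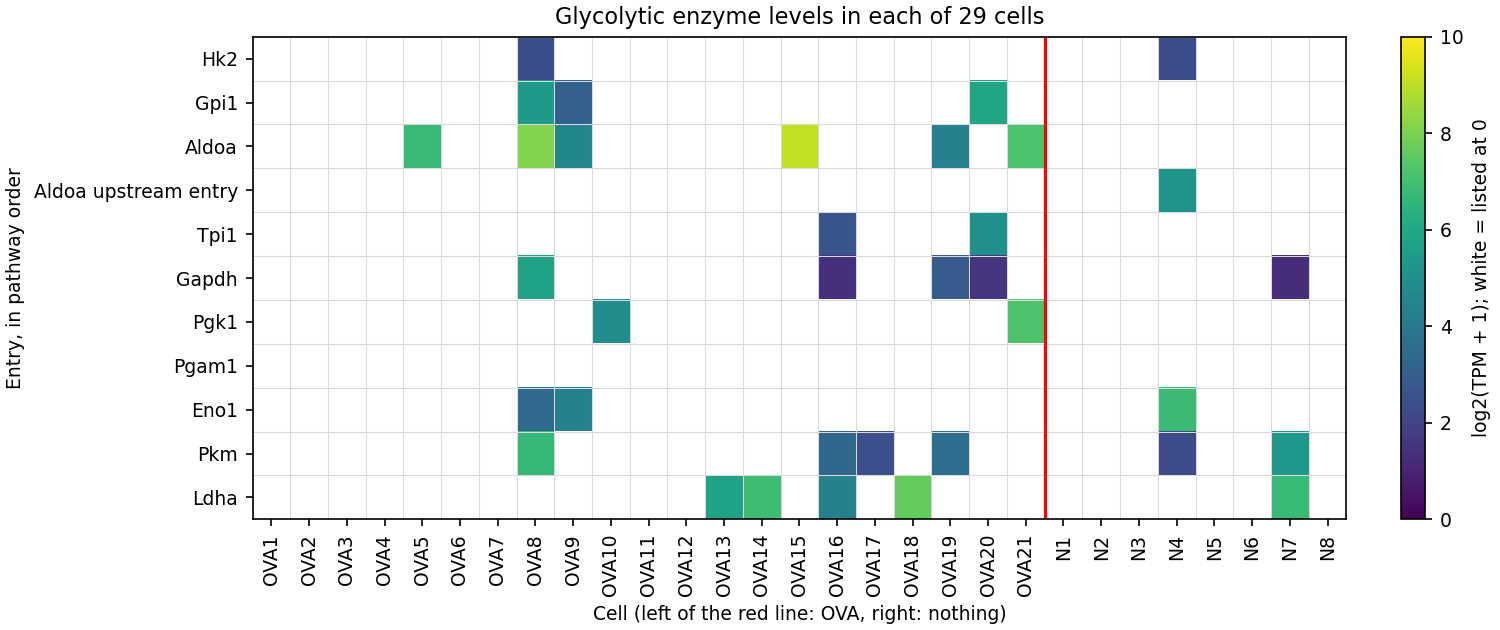
Level of each of the 11 entries (rows, in pathway order) in each of the 29 cells (columns), as log2(TPM + 1) on a colour scale, with white for entries listed at 0. OVA cells lie left of the red line and nothing cells right of it, and only N4 and N7 have coloured squares in their group.

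Libraries with more genes detected had more of the enzymes. The spike-in RNAs are part of the TPM total and took 5.58% to 97.7% of it in OVA cells (median 84.9%) and 14.8% to 99.4% in nothing cells (median 87.8%). The number of genes detected ran from 233 to 4180 in OVA cells and from 92 to 6385 in nothing cells. The 13 OVA cells with an enzyme had a median of 1292 genes, and the 8 without had a median of 757.5. N4 and N7 had 6385 and 2364 genes, the most of their group, and the other 6 nothing cells had a median of 267. Across the 29 cells the number of enzyme entries and the number of genes detected had a Spearman correlation of 0.69 and a Pearson correlation of 0.77, and both counts come from the same libraries. Their part in the difference between the groups was not tested. Fewer transcripts per cell and a poorer capture of them cannot be told apart here.

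**Figure D2:**
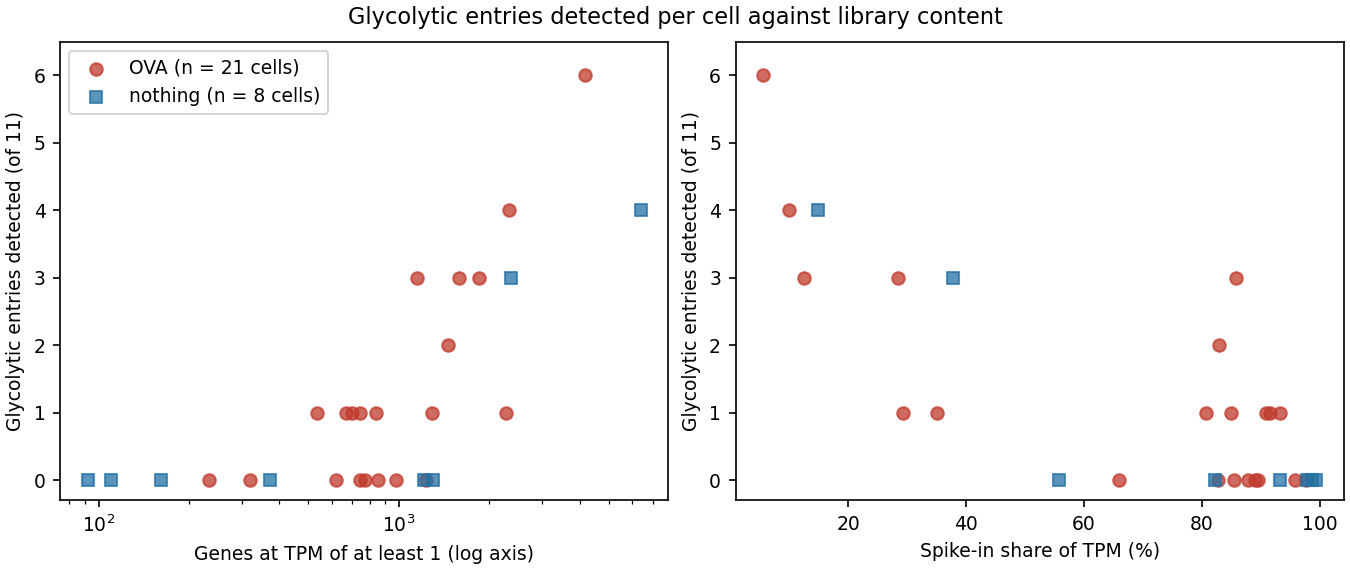
Number of glycolytic entries detected in each cell against the genes detected at a TPM of at least 1 (left, log axis) and against the spike-in share of TPM in percent (right), 1 point per cell. Cells with 3 or more entries lie at 1150 genes or more, and the highest point is OVA8 with 6 entries and 4180 genes.

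Hexokinase 2 and glucose phosphate isomerase catalyse the first steps of the pathway. Hk2 (ENSMUSG00000000628, chromosome 6, 82725025 to 82774454, positions from GENCODE M21 on GRCm38 here and below) encodes the inducible hexokinase. It was at 4.27 TPM in OVA8 and 4.09 TPM in N4 and was listed at 0 in the other 27 cells. Gpi1 (ENSMUSG00000036427, chromosome 7, 34201330 to 34230336), which converts glucose 6-phosphate to fructose 6-phosphate, was found in OVA cells only. It reached 58.3 TPM in OVA20, 41.1 in OVA8 and 7.45 in OVA9. The share was thus 14.3% in the OVA group (3 of 21, 95% interval 3.05% to 36.3%). In the nothing group it was 0 of 8, and a count of 0 still permits 37.5% by a limit of 3 cells, or 36.9% by the exact interval.

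Aldolase A, which cleaves fructose 1,6-bisphosphate into 2 triose phosphates, stood highest of the enzymes in the OVA group. Its main entry (ENSMUSG00000030695, chromosome 7, 126795234 to 126800751) was at 545 TPM in OVA15, 278 in OVA8, 143 in OVA21, 107 in OVA5, 23.1 in OVA9 and 19.7 in OVA19. The other 15 OVA cells and all 8 nothing cells were listed at 0, so every cell with a value was an OVA cell and most OVA cells lay level with the nothing cells. Its OVA share of 28.6% (95% interval 11.3% to 52.2%) stood against 0 of 8, for which the exact interval ends at 36.9%. OVA15 had 742 genes and 91.6% of its TPM in spike-ins, and Aldoa alone made up 0.649% of its TPM outside spike-ins, the highest share that the 11 entries reached together in any cell.

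The 2 Aldoa entries do not share a cell. The upstream entry (ENSMUSG00000114515, chromosome 7, 126800790 to 126809108) lies on the same minus strand, with 38 bases between its 3′ end and the main entry. It was at 35.1 TPM in N4 and listed at 0 elsewhere. Its 2 GENCODE transcripts have 741 and 799 bases and have no run of 50 bases in common with transcripts of the main entry or of any other gene. The entries share a symbol in the table, and whether the upstream one stands for aldolase A transcripts was not tested.

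Tpi1 (ENSMUSG00000023456, chromosome 6, 124810586 to 124814296) encodes triose phosphate isomerase, which interconverts the products of aldolase. It was at 31.4 TPM in OVA20 and 5.39 TPM in OVA16 and was listed at 0 in all nothing cells. OVA20 also held Tpi-rs4 and Tpi-rs5, copies named after it, at 20.6 and 20.0 TPM, while N4 had Tpi-rs4 at 88.9 TPM and Tpi1 listed at 0. Of all 50-base windows of the Tpi1 transcripts 4.18% also occur in another gene's transcripts.

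Gapdh, which oxidises glyceraldehyde 3-phosphate and is widely used as a reference gene, was among the lower enzymes. The gene (ENSMUSG00000057666, chromosome 6, 125161715 to 125166467) was at 52.9 TPM in OVA8, 6.24 in OVA19, 1.80 in OVA20 and 1.62 in OVA16, and at 1.43 in N7. Except in OVA8 it stayed under 10 TPM, and the nothing cell lay just below the OVA cells. The OVA share was 19.0% (95% interval 5.45% to 41.9%) and the nothing share 12.5% (0.316% to 52.7%). Windows of 50 bases identical to its own were found in transcripts of 218 other genes, and these windows were 24.7% of all its windows. The labels do not say how reads that match several places were counted, and the part of such reads in the low level was not tested.

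Phosphoglycerate kinase 1 makes the first ATP of the pathway. Pgk1 (ENSMUSG00000062070, chromosome X, 106187100 to 106203699) was at 146 TPM in OVA21 and 29.2 TPM in OVA10, and it was listed at 0 in the other 19 OVA cells and in all 8 nothing cells. Of its transcript windows 53.9% also occur in other genes, nearly all in the copy Pgk1-rs7, itself at 1.84 TPM in OVA8 alone. Phosphoglycerate mutase 1, which moves the phosphate group before enolase acts, is the missing step. Pgam1 (ENSMUSG00000011752, chromosome 19, 41911923 to 41918660) was listed at 0 in all 29 cells. Its muscle isozyme Pgam2 was also listed at 0 in all of them. The pseudogene Pgam1-ps2, with which 36.2% of the Pgam1 windows are shared, was at 3.04 TPM in OVA21.

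Enolase 1 and pyruvate kinase M complete the route to pyruvate, and the highest level of Eno1 was in a nothing cell and that of Pkm in an OVA cell. Eno1 (ENSMUSG00000063524, chromosome 4, 150236721 to 150248879) was at 112 TPM in N4, against 19.4 in OVA9 and 9.58 in OVA8. Its retrogene Eno1b was at 4.97 and 4.87 TPM in OVA8 and OVA9 and in no other cell, and 25.3% of the Eno1 windows are also found in it. Pkm (ENSMUSG00000032294, chromosome 9, 59656368 to 59679375) was at 101 TPM in OVA8, 11.2 in OVA19, 9.00 in OVA16 and 4.45 in OVA17, and at 39.0 in N7 and 3.86 in N4. The groups overlapped. For Pkm the nothing share of 25% (95% interval 3.19% to 65.1%) was above the OVA share of 19.0% (5.45% to 41.9%), within both intervals.

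Ldha encodes the lactate dehydrogenase subunit that favours lactate. The gene (ENSMUSG00000063229, chromosome 7, 46841475 to 46855627) was at 196 TPM in OVA18, 117 in OVA14, 54.8 in OVA13 and 20.3 in OVA16, and at 105 in N7. The nothing cell lay inside the range of the OVA cells. In 3 of the 4 OVA cells Ldha was the only enzyme of the 10. Aldoa and Ldha together marked 11 of the 15 cells with any enzyme, and 0 cells had both. Aldoa was detected in 6 of 29 cells and Ldha in 5, and many other pairs of entries also shared no cell. Gpi1 and Ldha, Eno1 and Ldha, and Aldoa and Tpi1 were among these. Of the 5 cells with Gapdh 4 also had Pkm. Aldoa with Ldha and Gapdh with Pkm were singled out after the values were seen, and no test was made of these pairs.

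**Figure D3:**
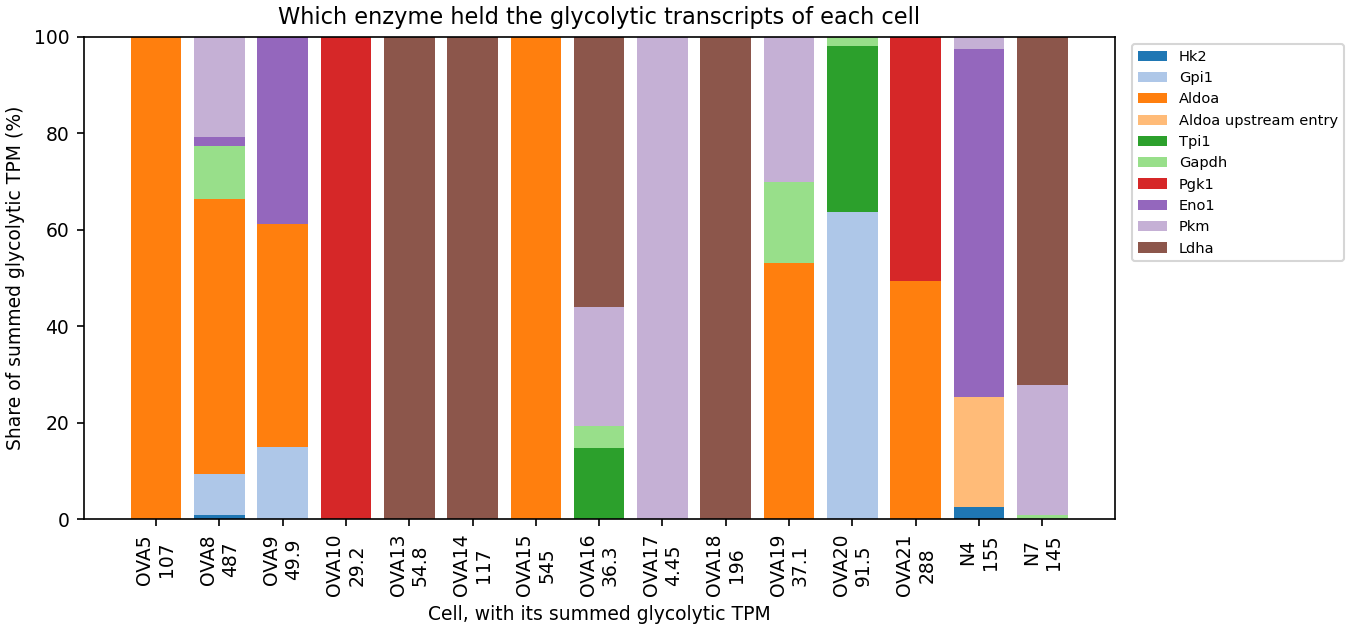
Make-up of the summed glycolytic TPM in the 15 cells with any entry detected, in percent of that sum, with the sum itself printed under each cell. A single enzyme fills the bar in 7 OVA cells, while Aldoa leads in OVA8 and Ldha in N7.

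Summed over the 11 entries, the level ran from 0 to 545 TPM in OVA cells (median 36.3) and from 0 to 155 TPM in nothing cells (median 0). On the log2(TPM + 1) scale the OVA group had a mean sum of 3.97 ± 3.49 and the nothing group one of 1.81 ± 3.35 (SD over cells), a difference of 2.16 that is smaller than either spread. Without the libraries with over 90% of TPM in spike-ins, which are 5 of 21 OVA cells and 4 of 8 nothing cells, that difference was 0.28, and the median of all genes moved from 0.10 to -0.19.

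Differences between group means were set beside all genes of the table that were detected in at least 3 of the 29 cells, 3717 in number. Of the 11 entries 6 passed this filter. Aldoa was higher in OVA cells by 1.91 on the mean log2(TPM + 1) scale, Gpi1 by 0.68, Gapdh by 0.39 and Ldha by 0.34. The differences of Pkm and Eno1 were -0.19 and -0.48. Thus 4 of the 6 were above 0 and 2 below, against 56.4% and 43.6% of all 3717 genes, and the median was 0.36 against 0.10 for all genes. Without the libraries with over 90% of TPM in spike-ins the median was -0.08 and the Ldha difference -0.57. A difference of at least 1, which is 2-fold on this scale, was reached upwards by 1 of 6, Aldoa, and by 9.31% of all genes, and downwards by 0 of 6 and by 6.62% of all genes. Aldoa and Gpi1, 2 of the 6, were found in the OVA group alone, as were 25.3% of all genes. For comparison, 8 of 12 housekeeping genes outside glycolysis passed the filter, all 8 were higher in OVA cells, 6 of them by at least 1, and their median was 1.71. Aldoa and Gpi1, and B2m and Ppia among the housekeeping genes, passed the filter through OVA cells alone, so their direction follows from it. The 5 entries below the filter differed by 0.58 (Pgk1), 0.37 (Tpi1), 0.00 (Pgam1), -0.18 (Hk2) and -0.65 (upstream Aldoa entry).

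Single cells set most of these values. Without N7 the Ldha difference was 1.18 and that of Pkm 0.44, and without N4 that of Eno1 was 0.37 and that of Hk2 0.11. Without OVA18 the Ldha difference was 0.01, without OVA8 that of Gapdh was 0.13, and without OVA20 that of Gpi1 was 0.42 and that of Tpi1 0.13. Leaving out OVA21 gave 0.25 for Pgk1. The Aldoa difference stayed between 1.55 and 2.0 with any cell left out. Its sign could not turn, since Aldoa was listed at 0 in all nothing cells. The 6 filtered entries had a median of 0.62 without N7, where that of all genes was 0.25, and of 0.21 without OVA18. Without N4 it was 0.37 for these entries and 0.36 for all genes.

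**Figure D4:**
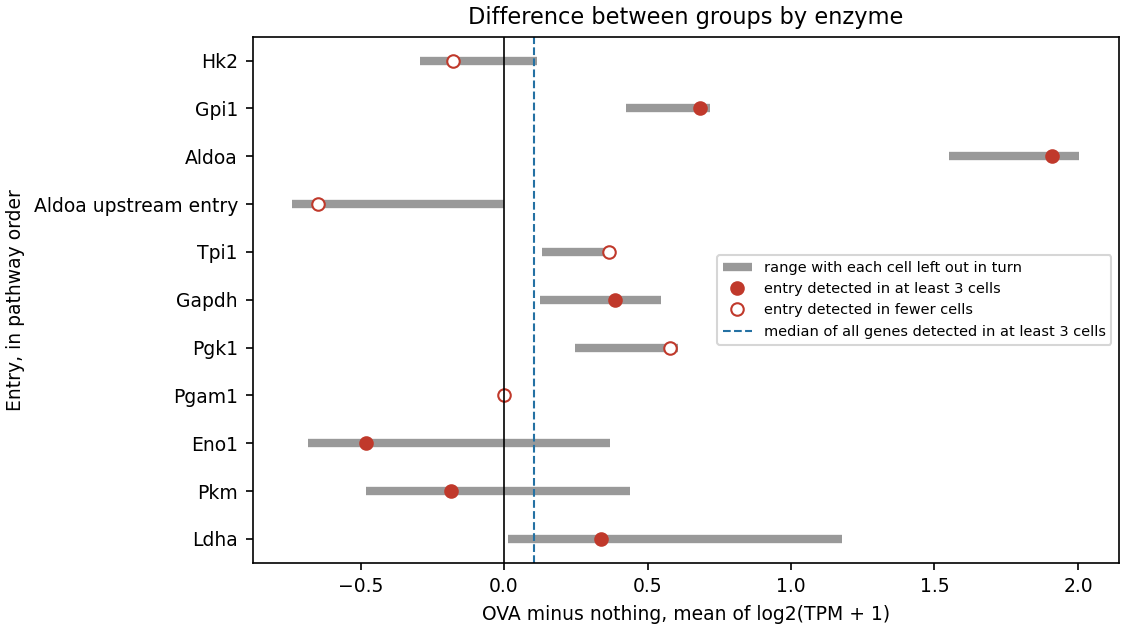
Difference between the group means of log2(TPM + 1), OVA minus nothing, for each entry (circles) with its range when each cell is left out in turn (grey bars), filled where the entry was detected in at least 3 cells, with the median of all such genes dashed. Aldoa is the only entry whose whole bar lies above 1, and the bars of Eno1, Pkm and Hk2 cross 0. Those of Aldoa, Gpi1, Tpi1 and Pgk1 cannot cross 0, since these entries were listed at 0 in all nothing cells.

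Other isozymes filled few of the remaining steps. Of 20 further glycolytic enzyme genes 12 were detected in at least 1 cell, and 8 were detected in none, among them Pfkm, Eno2 and Pklr. Phosphofructokinase, which commits sugar to glycolysis, was found in OVA9 and OVA10 as Pfkp (16.8 and 20.0 TPM) and in OVA16 as Pfkl (5.77 TPM). With all listed isozymes counted, OVA8 had 6 of the 11 steps from hexokinase to lactate dehydrogenase, the most of any cell. Aldolase was found in 6 cells, or 7 with the upstream Aldoa entry counted, and phosphoglycerate mutase in 0. The single gene of these 20 that passed the filter was Adpgk, an ADP-dependent glucokinase, at 168 TPM in N2, 28.9 in N4 and 2.95 in N8, and listed at 0 in all OVA cells. Its difference was -1.79, a direction that follows from the filter, since Adpgk passed it through nothing cells alone. Without N2 it would no longer pass, and the difference was -0.98. Hk1, the constitutive hexokinase, was at 197 TPM in N5 alone.

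Transporters and regulators were as sparse. Of 7 glucose and lactate transporters 2 were detected, the glucose transporter Slc2a1 at 3.89 TPM in OVA19 and 1.26 in OVA8, and the lactate transporter Slc16a1 at 11.8 TPM in OVA11, 2.34 in OVA8 and 1.06 in N7. Slc16a1, the transporter that passed the filter, differed by 0.13, or -0.04 without OVA11 and 0.26 without N7. Of 14 regulators 3 passed the filter, 2 higher and 1 lower in OVA cells and none by as much as 1. Pfkfb2, which makes the activator of phosphofructokinase, differed by 0.42 and was at 99.6 TPM in OVA12. The difference was 0.13 without OVA12 and 0.82 without N4. Mlxip, a glucose-sensing transcription factor, differed by 0.24, or 0.02 without OVA8. Hif1a, the oxygen-regulated subunit of HIF-1, differed by -0.06, or 0.41 without N4 and -0.26 without OVA3, and was detected in OVA3 and OVA19 and in N4. OVA3 had none of the 10 enzymes, OVA19 had Aldoa, Gapdh and Pkm, and N4 had 4 of the entries. Myc was listed at 0 in all cells.

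The branches that leave glycolysis were read from 2 further lists. Of 8 genes for pyruvate entry into mitochondria 2 passed the filter, Pdhb, a pyruvate dehydrogenase subunit, with a difference of -0.25 (0.45 without N4 and -0.58 without OVA13), and Mpc2, a pyruvate carrier, with 0.03 (0.60 without N4 and -0.25 without OVA20). Of 8 pentose phosphate pathway genes 1 passed, the transketolase Tkt, with a difference of 0.08 (-0.19 without OVA13 and 0.35 without N7). G6pdx and Pgd, the enzymes of that pathway that make NADPH, were at 81.6 and 82.4 TPM in OVA8 and listed at 0 elsewhere. They were chosen for mention after their values were seen.

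Markers of other cell types were detected in many libraries that held enzymes, and also in libraries that held none. Of 9 neutrophil markers at least 5 were detected in OVA8, OVA9, OVA16 and OVA20 and N4, and all 5 of these libraries were among the 7 with at least 3 enzyme entries. No other library had more than 4 of these markers, and Ly6g was detected in none. The summed level of the neutrophil markers ran from 0 to 20484 TPM in OVA cells (median 747, highest in OVA8) and from 0 to 4016 TPM in nothing cells (median 169, highest in N4). The next highest sums after OVA8 were in OVA6 (10885.5 TPM), OVA2 (8708), OVA11 (6351) and OVA1 (4331), and none of these libraries held an enzyme. The summed level of 12 T cell markers ran from 0 to 3387 TPM in OVA cells (highest in OVA13) and from 0 to 78.7 TPM in nothing cells, with medians of 0 and with Cd8a and Lck detected in none. A constant gene of the T cell receptor, Trac, Trbc1 or Trbc2, was detected in 4 OVA cells, and all 4 had an enzyme. Of them OVA13, which had the highest level of each of these 3 receptor genes and 2273 genes detected, had Ldha alone. OVA5 had Aldoa alone, OVA9 had Gpi1, Aldoa and Eno1, and OVA16 had Tpi1, Gapdh, Pkm and Ldha. In 6 of the 15 cells with an enzyme none of the 12 T cell markers was detected. At least 1 T cell marker was detected in 10 OVA cells and 2 nothing cells, and of these only OVA11, OVA12 and N5 held no enzyme. As for the APC, 6 of 10 dendritic cell and macrophage markers were detected in some cell, but H2-Aa, H2-Ab1, Itgax and Adgre1 in none. Such markers were found in 10 OVA cells and in N4 and N7, the nothing cells with an enzyme. N4 had 4 of them, Flt3 (43.5 TPM), Csf1r (20.0), Zbtb46 (17.6) and Lyz2 (16.1), and N7 had Zbtb46 (19.8). Of 8 B cell markers Cd79b was at 35.9 TPM in N4 and Cd74 at 41.8 TPM in N7. Cd79a and Ms4a1 were among the 6 found in none. Of 6 erythroid markers 5 were detected, all but Alas2, in 6 OVA cells and 2 nothing cells, and 7 of these 8 libraries held an enzyme, among them 4 of the 6 with the main Aldoa entry. Their summed level ran from 0 to 1616 TPM in the OVA group (highest in OVA20) and from 0 to 558 TPM in the nothing group (highest in N4), with medians of 0. The part of other cell types in the enzyme levels was not tested. Libraries were also left out by the number of neutrophil markers and not by their level, which kept OVA6, OVA2, OVA11 and OVA1. Without the 5 libraries with at least 5 of the 9 markers, 52.9% of 17 OVA cells and 14.3% of 7 nothing cells had an enzyme. The median of all genes was 0.24. The Aldoa difference was then 1.61, that of Pgk1 0.71, that of Ldha 0.23, that of Gapdh -0.02 and that of Pkm -0.40, while Gpi1, Tpi1, Hk2 and Eno1 were listed at 0 in all cells left.

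The genes most like the summed enzyme level over the 29 cells were ranked by Spearman correlation among 159 genes detected in at least 8 cells. Among the 5 highest were Rps21 (0.74), Hist1h2ao (0.70), Rack1 (0.66) and Rpsa (0.66), of which Rps21 and Rpsa encode ribosomal proteins and Rack1 a ribosome-bound scaffold. The median over the 159 genes was 0.35, and the number of genes detected in a cell itself correlated with the summed level at 0.56. All points share their library and its RNA content.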

How the data were processed

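The authors deposited 1 table of TPM values with a column per cell for 29 SMART-seq2 libraries, a full-length cDNA method. Each column sums to 1000000 over genes, 92 spike-ins and 3 transgenes. Per the submitters' processing notes, featureCounts 1.6.4, HISAT2 2.1.0 and StringTie 1.3.5 were used, and mm10 and GRCm38 are the builds listed, with no role stated for any. TPM keeps no read number, so depth is unknown, and 97.28% of gene entries were 0. Groups follow the treatment label. A gene was detected at a TPM of at least 1 and kept when detected in at least 3 cells. Group means of log2(TPM + 1) were subtracted, OVA minus nothing, in Python 3.11.15 with pandas 2.3.3. A difference of at least 1 counted as called. Intervals of shares are Clopper-Pearson, exact, at 95%, and the limit for a share of 0 is 3 cells. No doublets were called, and no libraries were identical. The subtraction was tested on simulated data. The members and lists were chosen with earlier results of these data known. Named genes were the members, kept genes of the pathway lists and the 5 genes most like the summed level, of which 1 is not reported here. Other list genes were named after their values were seen. Alternatives changed the pseudocount, the detection threshold, the filter, the scaling and the cells used. Promoters are from RefSeq (GRCm38.p6). Shared windows were exact 50-base runs on the same strand of GENCODE M21 transcripts, with all transcripts of a gene pooled.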

Additional observations from a re-analysis of the deposited data

Results flagged for a closer look

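Among the 8 nothing cells, 1 cell stood apart from the other 7 for 12 of 21 values examined, in that its gap to the nearest cell, divided by the group's range on the log2 scale, exceeded Dixon's 95% critical value. Chance flags about 1 in 20 groups of normally distributed values, a rate that does not apply to values mostly at 0. A gene listed at 0 in every cell but 1 is always picked out, which holds for every gene named below except Pkm. One listed at 0 in all 8 cells, such as Gpi1, cannot be picked out. N4 was alone with Hk2 (4.09 TPM), Eno1 (112 TPM), the upstream Aldoa entry (35.1 TPM), Hif1a (12.4 TPM), Pdhb (49.0 TPM), Pfkfb2 (8.38 TPM) and Mpc2 (23.5 TPM). This is the library with the most genes, 6385. N7 was alone with Ldha (105 TPM), Gapdh (1.43 TPM) and Slc16a1 (1.06 TPM), and it was far above the others with Pkm (39.0 TPM). N8 was alone with Mlxip (1.04 TPM).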

How the results depend on the processing

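The number of enzyme entries higher by at least 1 went from 1 to 2 with a pseudocount of 0.1, where Gpi1 reached 1.15, and it was 1 to 2 with each cell left out in turn, reaching 2 without N7. Without the libraries with over 90% of TPM in spike-ins the number lower by at least 1 went from 0 to 1 (Eno1, -1.22), the median over the filtered entries from 0.36 to -0.08, and the difference in entries per cell from 0.46 to -0.19. That choice leaves 16 OVA cells and 4 nothing cells, so fewer samples enter. Under it the Ldha difference was -0.57. With each cell left out in turn the difference in entries per cell was 0.23 to 0.90, and the summed level differed by 1.90 to 2.94. Rescaling without spike-ins gave a median of 0.52 over the filtered enzymes while the median of all kept genes moved by 0.11, and the Aldoa difference was 2.26, or 2.53 also without mitochondrially encoded genes. No enzyme is kept when detection in at least 10 cells is asked for, so that choice gave no value. Without libraries with at least 5 of 9 neutrophil markers, a choice made after seeing the data, the median was 0. Of 919 values under an alternative 916 stayed within 1 SD over cells, the 95% interval of a share or 1.5 times a count. That SD was larger than every main difference except that of Pgam1, which is 0 throughout, so few values could leave this limit. The changes to -0.57 for Ldha, -0.08 for the median and -0.19 for entries per cell all lay within it. Of 19 gene differences 10 changed sign under at least 1 alternative. No paired analysis was possible because the labels carry no replicate number that the groups share. Depth limits every 0 in these libraries, since TPM gives no floor.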
